A study of Homo sapiens with 24 samples.

Results

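The late part of a bromouridine pulse-chase was examined in U2OS cells expressing the TOB2 mutant S254D, as the change between the libraries taken at 4 and 6 h of chase and those taken at 1 and 2 h. The 8 libraries were chosen by arm and time alone, from 24 in the series, and each of the 4 times had 2 libraries. The measure was TPM, a transcript's abundance corrected for its length and scaled to a fixed total, for the 13416 genes that averaged 1 TPM or more across the 24 libraries. U2OS is a human osteosarcoma cell line. The cells came from a custom double-stable line with a Tet-off switch, in which the mutant is off while doxycycline is in the medium. The induced arm was grown without doxycycline and the uninduced arm with it, so the drug and the transgene cannot be told apart between arms. All cells carried the endogenous TOB2 gene and were chased after a bromouridine pulse. RNA was taken from the cytoplasm, and the labelled molecules were pulled out with an antibody to bromouridine. The labels do not say whether the line is a single clone, or whether the replicate libraries came from separate cultures. The p-values therefore measure the spread between these libraries, which may be technical.

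TOB2 belongs to the BTG/TOB family of antiproliferative proteins, which bind the CCR4-NOT deadenylase and can bring it to mRNAs. Removal of the poly(A) tail is usually the first and often the slowest step of cytoplasmic mRNA decay, and it is followed by decapping or by digestion by the exosome. Phosphorylation of TOB proteins by MAP kinases is known to weaken their antiproliferative activity, and a phosphomimetic residue is a stand-in for the phosphorylated form. In a pulse-chase the label is not renewed, so short-lived RNAs already in the cytoplasm lose their share of the labelled pool with time. Long-lived RNAs gain in share. Labelled RNA that leaves the nucleus during the chase also adds to the cytoplasmic pool, and its part was not tested. TPM values add up to a fixed total in every library. A gene that rose here gained in share of the labelled cytoplasmic RNA, and no absolute loss or half-life can be read from these values. Fewer cells and less RNA per cell cannot be told apart in such bulk samples.

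TOB2 was higher in every induced library from 1 to 6 h than in any uninduced one of those times. TOB2 stood at 725 and 584 TPM at 1 h, 717 and 607 at 2 h, 529 and 677 at 4 h, and 711 and 576 at 6 h in replicates 1 and 2 of the induced arm. The late and the earlier values overlapped (late change log2 -0.082, adjusted p = 0.557). In the uninduced arm TOB2 stood at 246 and 203 TPM at 1 h, 261 and 235 at 2 h, 168 and 171 at 4 h, and 105 and 92.3 at 6 h, below every induced library. The gene total does not separate mutant from endogenous mRNA.

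Between 12704 and 13628 genes reached 1 TPM in each of the 8 libraries, and Pearson's r between the log2 values of replicates was 0.976 to 0.986 across genes. Sequencing depth is unknown, since TPM keeps no trace of it. The noncoding RNAs RMRP, MIR6723 and RPPH1 together held 15.3 to 21.4% of all TPM at 1 and 2 h and 7.14 to 12.3% at 4 and 6 h. MIR6723 alone stood at 81244 to 109215 TPM at 1 and 2 h and at 31713 to 74409 at 4 and 6 h. It is a microRNA entry, too short to be measured well, and the origin of its reads was not tested. Transcripts with a coding RefSeq accession held 72.1 to 79.0% at the earlier times and 82.5 to 88.2% at the later ones. A rescaling without the 3 RNAs is given with the counts below. Of 10 mesenchymal markers, 5 passed the filter, and their list summed to between 938 and 1127 TPM at 1 and 2 h and between 1443 and 1821 at 4 and 6 h, VIM being the most abundant. TWIST1 was at 0 in all 8 libraries, and FN1 and SPARC were below 1 TPM. Of 10 osteoblast markers, 3 passed, RUNX2 and BGLAP among them, while SP7 and ALPL were near 0, so that these cells did not show the full osteoblast set. The epithelial keratins KRT8 and KRT18 were abundant without EPCAM, which was at 0. LYZ and CD14 were the leukocyte markers measured, whose list of 10 summed to between 16.5 and 47.3 TPM, while SPI1 and MS4A1 were at 0.

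The change from 1 and 2 h to 4 and 6 h was broad. With limma and Benjamini-Hochberg adjustment over the 13416 genes, 4666 genes (34.8%) rose and 3686 (27.5%) fell at an adjusted p of 0.05. In 3662 genes (27.3%) all 4 late libraries were above all 4 earlier ones, and in 2715 (20.2%) all 4 were below. The median change was 0.067 on the log2 scale of TPM plus 1, with a 5th percentile of -1.23 and a 95th percentile of 0.87. Falls reached further than rises, as 1047 genes fell by over 1 log2 and 346 rose by over 1. Of 11723 coding genes, 4599 were higher (39.2%) and 2866 lower (24.4%). That order turned when TPM was scaled over protein-coding transcripts only, with 3398 higher and 3782 lower. Of 1693 genes with only noncoding transcripts, 67 were higher (3.96%) and 820 lower (48.4%). Of all called genes, 55.9% were higher. That share became 44.7% when RMRP, MIR6723 and RPPH1 were taken out and TPM was rescaled, which moved the median of all genes by -0.127. Changes near the median therefore depend on what the other RNAs do, and the groups below are read against the median of all genes.

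Promoter sequences are shown for 3 of the strongest fallers and 1 of the strongest risers, because most of the named fallers shared a motif. They are the 90 bases before the annotated start, 5′ to 3′ on the strand of the gene, from RefSeq on GRCh38.p14. Capitals mark the CCAAT box in either direction, the TATAAA box and the GGGCGG box.
JUNB, chr19:12791396-12791485, plus strand: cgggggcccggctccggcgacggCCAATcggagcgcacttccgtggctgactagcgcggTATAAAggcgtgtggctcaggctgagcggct
IER5, chr1:181088610-181088699, plus strand: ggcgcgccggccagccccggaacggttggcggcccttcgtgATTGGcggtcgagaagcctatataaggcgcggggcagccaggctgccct
TBCC, chr6:42746104-42746193, minus strand: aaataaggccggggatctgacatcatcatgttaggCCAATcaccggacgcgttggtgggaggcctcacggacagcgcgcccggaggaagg
POLR2B, chr4:56978806-56978895, plus strand: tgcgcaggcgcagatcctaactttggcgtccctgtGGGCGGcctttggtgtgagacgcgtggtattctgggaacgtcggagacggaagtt
In the 250 bases before the start, CCAAT on either strand was found in 7 of the 10 named coding fallers with an entry and in 2 of the 9 with one among the 12 largest coding rises. Over all genes the contrast was smaller. CCAAT was present in 46.4% of 632 promoters of coding genes that fell by over 1 log2, in 35.8% of 9644 promoters of measured coding genes and in 33.0% of all 27305 promoters in the table. TATAAA on either strand was present in 12.7%, 5.53% and 11.1% of the same sets. GGGCGG on either strand was present in 63.0%, 67.9% and 42.3%. In 277 promoters of coding genes that rose by over 1 log2, CCAAT was present in 39.0%, TATAAA in 6.14% and GGGCGG in 66.1%. The share with CCAAT was thus above that of all measured coding genes in strong risers as well. Replication-dependent histone genes are among the coding genes that fell by over 1 log2, and HIST1H2BJ and HIST1H3A hold both TATAAA and CCAAT. The shares without the histone genes were not computed. The motifs do not overlap each other in sequence. These matches describe letters in the window and nothing about the factors that bind them.

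The 3 largest falls among coding genes were in mRNAs of regulatory proteins. JUNB, a subunit of the AP-1 transcription factor, stood at 1058 and 998 TPM at 1 h, 337 and 320.0 at 2 h, 68.2 and 53.9 at 4 h, and 13.7 and 16.7 at 6 h. Every late library was below every earlier one, and each step down was larger than the gap between replicates (late change log2 -4.21, SE 0.080, adjusted p = 1.09e-15). IER5, an immediate early protein that acts on the heat shock factor HSF1, stood at 215 and 292 TPM at 1 h, 95.9 and 145 at 2 h, 16.4 and 24.4 at 4 h, and 4.99 and 4.91 at 6 h. Its groups did not overlap either (late change log2 -3.95, SE 0.17, adjusted p = 1.29e-11). TRIB1, a pseudokinase that directs ubiquitin ligases to their targets, stood at 184 and 203 TPM at 1 h, 120.5 and 137 at 2 h, 13.3 and 21.7 at 4 h, and 6.86 and 5.83 at 6 h. The drop from 2 to 4 h was larger than that from 1 to 2 h, and the groups were separate (late change log2 -3.79, SE 0.13, adjusted p = 1.74e-12).

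The other named fallers followed with smaller changes. KTI12, an Elongator-associated protein, fell from 134 to 11.1 TPM (log2 -3.72, SE 0.14). SERTAD1, a cofactor of cyclin D and E2F, fell from 63.0 to 4.47 TPM (log2 -3.63, SE 0.20), and CITED2, which binds the coactivators CBP and p300, fell from 114 to 8.64 TPM (log2 -3.60, SE 0.14). In both, all 4 late values were below all earlier ones. PPP1R3C, which targets protein phosphatase 1 to glycogen, fell from 62.3 to 4.92 TPM (log2 -3.46, SE 0.18). CHAC1, a glutathione-degrading enzyme of the stress response, fell from 109 to 9.80 TPM (log2 -3.40, SE 0.10). TBCC, a cofactor of tubulin folding, fell from 101 to 9.42 TPM (log2 -3.32, SE 0.14). None of these 3 is a transcription factor. FKBPL (-3.39) and IER5L (-3.28) completed the set, along with TNFAIP8L2-SCNM1, a readthrough of neighbouring genes whose reads cannot be told from theirs (log2 -3.45, SE 0.83). Of the 12 named fallers, 6 had a gene span under 3 kb in RefSeq.

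The largest rises among coding genes were smaller than the largest falls. SLC4A2, an anion exchanger of the plasma membrane, stood at 32.5 and 24.8 TPM at 1 h, 52.6 and 37.2 at 2 h, 131 and 132 at 4 h, and 152 and 167 at 6 h. All late values were above all earlier ones, with most of the step between 2 and 4 h (late change log2 2.00, SE 0.13, adjusted p = 1.80e-09). POLR2B, which forms the active centre of RNA polymerase II with the largest subunit, stood at 48.8 and 37.5 TPM at 1 h, 86.8 and 73.9 at 2 h, 157 and 155 at 4 h, and 199 and 196 at 6 h. Its 1 h values were the lowest and its 6 h values the highest (late change log2 1.57, SE 0.097, adjusted p = 9.46e-10). SRRT, the ARS2 protein that works with the nuclear cap-binding complex, stood at 54.7 and 39.8 TPM at 1 h, 89.7 and 70.5 at 2 h, 178 and 171 at 4 h, and 208 and 221 at 6 h. The groups of SRRT were likewise separate (late change log2 1.65, SE 0.13, adjusted p = 1.70e-08).

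The other named risers had varied roles. DDX17, an RNA helicase, rose from 121 to 377 TPM (log2 1.65, SE 0.11). U2AF2, which recognizes the polypyrimidine tract at splice sites, rose from 80.2 to 233 TPM (log2 1.56, SE 0.096). UQCRC2, a core subunit of respiratory complex III, rose from 35.1 to 109 TPM (log2 1.63, SE 0.12). CCAR2, an inhibitor of the deacetylase SIRT1, rose from 24.5 to 75.8 TPM (log2 1.63, SE 0.15). TMEM259, a membrane protein, rose by 1.54 log2. ZBED6 (1.84) and BMI1 (1.59) also rose, but they share their loci with ZC3H11A and COMMD3 transcripts, and their own levels are uncertain. None of the 12 coding genes with the largest rises by the naming rule had a gene span under 3 kb.

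**Figure D1:**
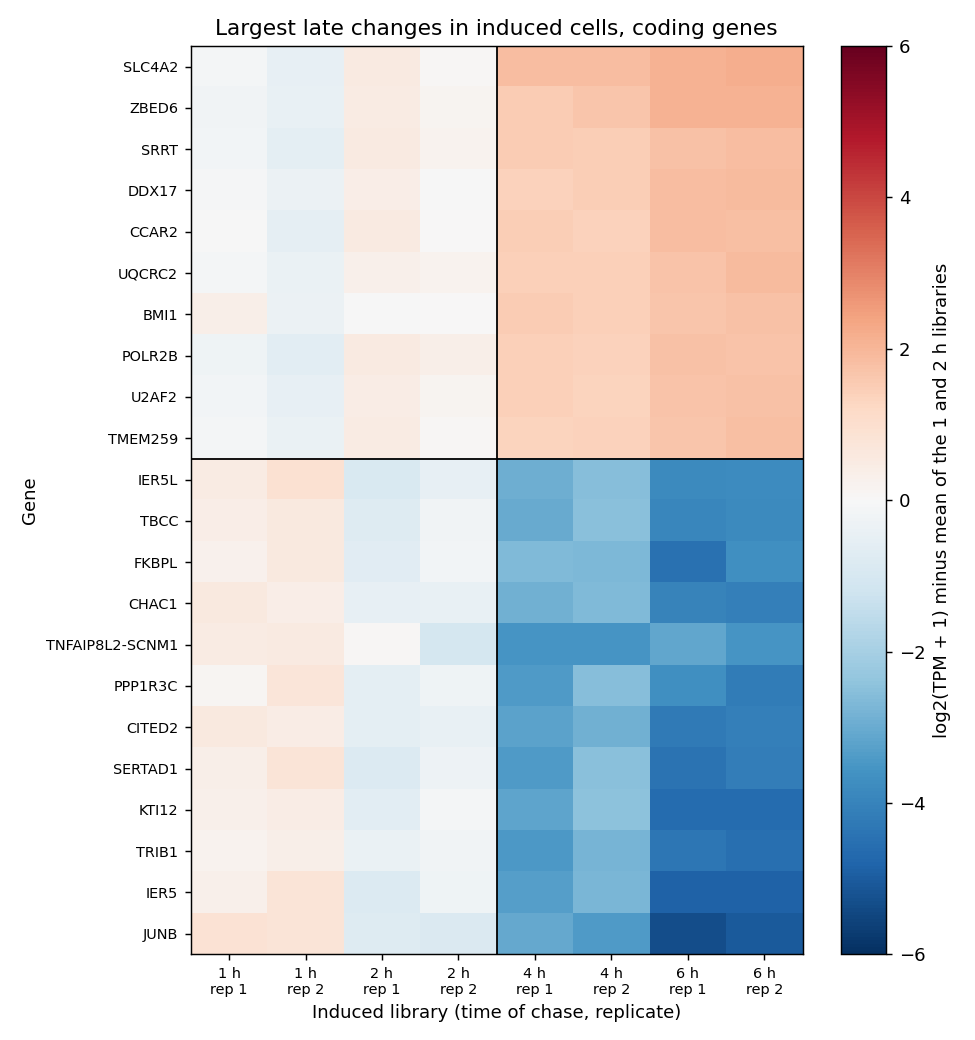
Each cell is 1 induced library and 1 gene, coloured by log2(TPM + 1) minus the mean of the gene over the 4 libraries at 1 and 2 h, for 10 of the 12 coding genes with the largest rise and the 12 with the largest fall. JUNB reached 13.7 and 16.7 TPM at 6 h, the darkest blue cells, while the rises in the upper part of the plot were smaller.

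Immediate early genes, which cells switch on within minutes of a stimulus without new protein synthesis, fell almost as a block. Of 56 measured, 54 fell and 2 rose, with a median of -1.98 against 0.067 over all genes. The list median was -1.44 in the uninduced arm. This list and those below were drawn up with earlier results of these data known, so their counts only describe their members. DUSP1, a phosphatase that turns off MAP kinases, stood at 1726 and 1369 TPM at 1 h, 606 and 563 at 2 h, 249 and 174 at 4 h, and 58.3 and 60.5 at 6 h. Its late values were all below the earlier ones, and the 6 h values were well under those at 4 h (late change log2 -3.08, SE 0.13, adjusted p = 1.36e-11). The inhibitors of DNA binding ID1 and ID3 fell from 1239 to 124 TPM and from 1083 to 136 TPM (-3.22 and -3.14 on the log2 scale). The 2 that rose were PER1, a circadian repressor (from 21.9 to 28.4 TPM, log2 0.37, SE 0.083), and SRF, the factor that drives many immediate early promoters (from 92.2 to 110.4 TPM, log2 0.27, SE 0.089). JUND, of the same family as JUNB, fell by less (log2 -0.44, SE 0.17).

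Feedback inhibitors of signalling fell with them. Among 28 MAP kinase and receptor kinase feedback genes, 23 fell and 2 rose (median -1.19). DUSP6, a phosphatase for ERK, fell from 35.1 to 3.28 TPM (log2 -3.19, SE 0.15), and SPRY2, an inhibitor of receptor tyrosine kinase signalling, fell from 173 to 24.6 TPM (log2 -2.83, SE 0.11). SOCS3, which blocks cytokine receptor signalling, fell from 509 to 71.1 TPM (log2 -2.74, SE 0.060). SOCS7 (log2 0.59, SE 0.12) and DUSP3 (log2 0.45, SE 0.075) were the 2 that rose.

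The KLF, ID, homeobox and MYC network list had 28 falls and 3 rises among 41 genes (median -0.72). MYC, the growth-promoting transcription factor, stood at 4327 and 2951 TPM at 1 h, 2332 and 1709.9 at 2 h, 1153 and 637 at 4 h, and 506 and 314 at 6 h. Every late value was below every earlier one (late change log2 -2.19, SE 0.21, adjusted p = 2.21e-07). Its partner MAX rose from 72.7 to 88.7 TPM (log2 0.28, SE 0.087), and MGA, another MAX partner, rose from 51.3 to 79.5 TPM (log2 0.65, SE 0.094). KLF6, a zinc finger factor, fell from 76.7 to 10.8 TPM (log2 -2.81, SE 0.14).

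A list of other short-lived regulatory mRNAs, many of them without introns, had 28 falls and 2 rises among 36 (median -1.14). It was drawn up around mRNAs known to be unstable and shares SERTAD1 with the immediate early list, so its direction is no separate evidence. RHOB, a small GTPase of endosomes, fell from 749 to 124 TPM (log2 -2.67, SE 0.13), and TSC22D1, a leucine zipper protein, fell from 415 to 86.9 TPM (log2 -2.37, SE 0.10). NFE2L1, a transcription factor of proteasome genes, rose from 168 to 252 TPM (log2 0.60, SE 0.094).

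Signalling lists held genes of both directions. Among 37 BMP, TGF-beta and YAP genes, 16 fell and 10 rose. The inhibitory SMAD7 fell from 104 to 18.4 TPM (log2 -2.53, SE 0.13) and the corepressor TGIF1 fell from 325 to 38.9 TPM (log2 -3.10, SE 0.080), whereas the signal transducer SMAD2 rose from 45.4 to 73.6 TPM (log2 0.70, SE 0.10) and the coactivator YAP1 rose from 64.5 to 128 TPM (log2 1.00, SE 0.080). CYR61, a secreted YAP target, fell from 858 to 193 TPM (log2 -2.11, SE 0.17). Among 23 circadian and Notch genes, 9 fell, among them the Notch target HES1 (from 72.6 to 8.69 TPM, log2 -2.95, SE 0.092), and 8 rose, among them the receptor NOTCH2 (from 89.6 to 168 TPM, log2 0.93, SE 0.12). The share of the circadian and Notch list that rose is near the 34.8% of all genes, and the share that fell is above the 27.5% of all genes. In the inflammatory list 13 of 30 fell and 7 rose. NFKBIA, the inhibitor that holds NF-kappaB in the cytoplasm, fell from 448 to 143 TPM (log2 -1.62, SE 0.096), while the NF-kappaB subunit RELA rose from 65.8 to 96.2 TPM (log2 0.56, SE 0.12).

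The p53 target list had 15 falls and 6 rises among 29 genes. CDKN1A, the p21 inhibitor of cyclin-dependent kinases, fell from 240.0 to 102 TPM (log2 -1.30, SE 0.11), and BBC3, a BCL2-family activator of apoptosis, fell from 25.1 to 4.65 TPM (log2 -2.26, SE 0.12). MDM2, the ubiquitin ligase for p53, rose from 102 to 141 TPM (log2 0.47, SE 0.077). In the integrated stress response 10 of 28 fell and 9 rose, shares near the 27.5% and 34.8% of all genes, so nothing is read from the list as a whole. DDIT4, an inhibitor of mTORC1 signalling, stood at 2867 and 2397 TPM at 1 h, 1280.5 and 1252 at 2 h, 458 and 417 at 4 h, and 202 and 181 at 6 h. The late values were far below the earlier ones (late change log2 -2.65, SE 0.16, adjusted p = 6.13e-10). The transcription factors ATF3 (-2.14) and DDIT3 (-1.54) fell, while amino acid enzymes of the same response rose, with PHGDH of serine synthesis going from 234 to 460.1 TPM (log2 1.02, SE 0.19) and ASNS, asparagine synthetase, going from 39.4 to 64.3 TPM (log2 0.71, SE 0.18).

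Most chaperone mRNAs rose. Of 29 endoplasmic reticulum genes, 22 rose and 3 fell (median 0.59). The fallers were XBP1, the transcription factor of the unfolded protein response (from 807 to 298 TPM, log2 -1.51, SE 0.096), the cochaperone DNAJB9 (from 32.4 to 6.97 TPM, log2 -2.18, SE 0.14) and HERPUD1 (from 213 to 157 TPM, log2 -0.45, SE 0.10). SEC61A1, the channel of the translocon, rose from 228 to 488 TPM (log2 1.12, SE 0.076). Of 29 heat shock and chaperonin genes, 22 rose and 6 fell (median 0.58). The fallers were DNAJB1, HSPA1B, HSPA1A, DNAJB4, HSPA8 and BAG3, most of which are induced by heat shock, with DNAJB1 going from 325 to 97.4 TPM (log2 -1.86, SE 0.077). HSPA1A and HSPA1B are near-identical, and reads may be split between them. CCT8, a subunit of the constitutive TRiC chaperonin, rose from 147 to 380.3 TPM (log2 1.39, SE 0.11).

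**Figure D2:**
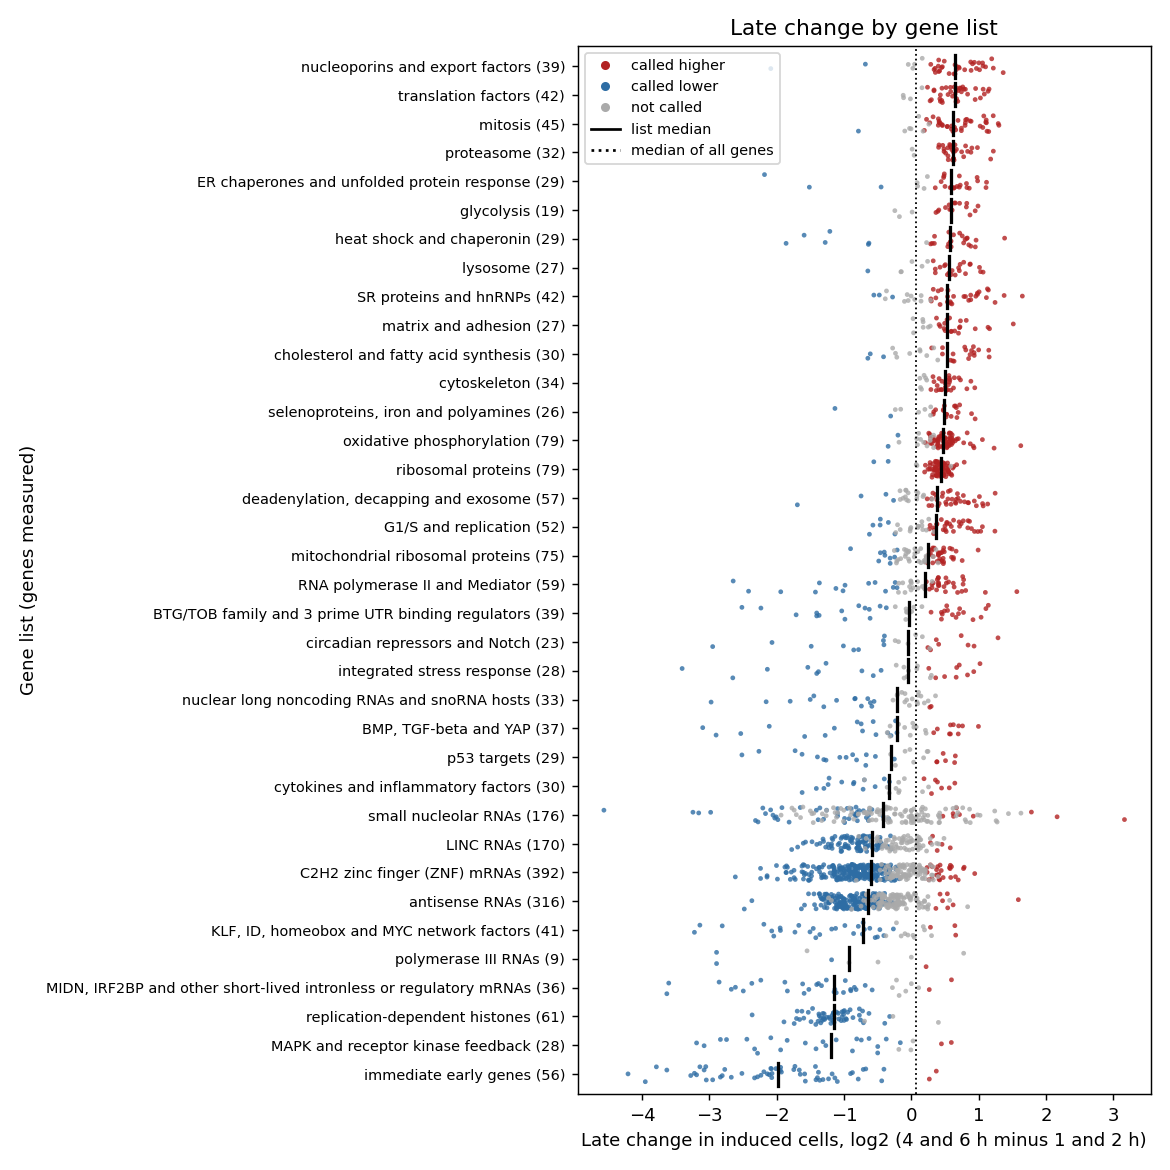
Each point is a gene at its late change (log2, mean of 4 and 6 h minus mean of 1 and 2 h), by gene list, with the number of genes measured in brackets, a bar at each list median and a dotted line at the median of all genes. The immediate early list lies farthest left, at a median of -1.98, and lists of translation, proteasome and mitosis genes lie right of the dotted line.

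Most ribosomal protein mRNAs rose. They carry a 5′ terminal oligopyrimidine tract and are known to be long-lived. There were 74 rises and 2 falls among 79 (median 0.43). RPL5, a large-subunit protein that also binds MDM2, stood at 1555 and 1400.2 TPM at 1 h, 1789 and 1794 at 2 h, 2522 and 2294 at 4 h, and 3204 and 3329.7 at 6 h. All late values were above the earlier ones (late change log2 0.79, SE 0.067, adjusted p = 4.34e-08). RPL10A (from 668 to 450.4 TPM, log2 -0.56, SE 0.068) and RPL28 (from 354 to 278 TPM, log2 -0.34, SE 0.11) were the 2 that fell. Ribosomal protein genes have many processed pseudogenes, so single values carry that uncertainty. Mitochondrial ribosomal proteins were less uniform, with 37 rises and 9 falls among 75 (median 0.24). Their counts became 23 and 17 under quantile normalization, with a median of 0.077 against 0.108 over all genes, and 24 and 18 in protein-coding transcripts only.

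Translation factors had 38 rises and no falls past the threshold among 42 (median 0.64), with EIF4G2, a scaffold of cap-independent initiation, going from 329 to 728 TPM (log2 1.15, SE 0.080). Proteasome subunits had 30 rises and no falls among 32 (median 0.62), with PSMD2 of the regulatory particle going from 80.6 to 186 TPM (log2 1.22, SE 0.11). Oxidative phosphorylation had 66 rises among 79 (median 0.47), and its 2 falls were the small subunits ATP5D (log2 -0.34, SE 0.12) and UQCR11 (log2 -0.20, SE 0.070). Glycolysis had 16 rises among 19, with PKM, the pyruvate kinase of proliferating cells, going from 732 to 1422 TPM (log2 0.99, SE 0.13). Most members of each of these 4 lists rose, against 34.8% of all genes.

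Membrane, matrix and structural lists were higher too. Lysosomal genes had 21 rises among 27, and the 1 that fell was TFEB (from 14.0 to 8.65 TPM, log2 -0.65, SE 0.14), a transcription factor of lysosomal genes. Cholesterol and fatty acid synthesis had 18 rises and 3 falls among 30. SQLE, the squalene epoxidase of cholesterol synthesis, rose from 68.8 to 138 TPM (log2 1.00, SE 0.089), and INSIG1, the feedback inhibitor of the pathway, fell from 107 to 75.3 TPM (log2 -0.65, SE 0.24). Matrix and adhesion genes had 20 rises and no falls among 27, led by the integrin ITGAV (from 9.84 to 29.8 TPM, log2 1.51, SE 0.12). Cytoskeletal genes had 28 rises and no falls among 34, with the actin crosslinker FLNA going from 51.5 to 98.3 TPM (log2 0.94, SE 0.14).

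Cell cycle genes mostly rose. Of 45 mitosis genes, 38 rose (median 0.62), among them the kinase PLK1 (from 52.7 to 115 TPM, log2 1.22, SE 0.13) and FOXM1, the transcription factor of this set (from 65.3 to 159.5 TPM). SPC25, a kinetochore subunit, was the 1 that fell (from 101 to 58.2 TPM, log2 -0.79, SE 0.17). Of 52 G1/S and replication genes, 31 rose and 6 fell (median 0.36). The fallers included the phosphatase CDC25A (from 170.0 to 111 TPM, log2 -0.62, SE 0.11), the licensing factor CDT1 (from 138 to 93.7 TPM, log2 -0.57, SE 0.091) and cyclin D1, CCND1 (from 95.3 to 69.8 TPM, log2 -0.46, SE 0.080). POLD1, the catalytic subunit of DNA polymerase delta, rose from 6.13 to 15.9 TPM (log2 1.24, SE 0.13).

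Replication-dependent histone mRNAs, which end in a stem-loop in place of a poly(A) tail, fell in 58 of 61 cases and rose in none (median -1.16). HIST1H2BJ stood at 986 and 1090.5 TPM at 1 h, 692 and 809 at 2 h, 333 and 318 at 4 h, and 236 and 217 at 6 h. The groups were separate (late change log2 -1.69, SE 0.066, adjusted p = 5.07e-12). HIST1H3A fell from 305 to 92.2 TPM (log2 -1.74, SE 0.083), and HIST1H4C, the most weakly changed of those that fell, went from 1331 to 1061 TPM (log2 -0.32, SE 0.073). The 3 members that did not pass were HIST1H4D, HIST1H4L and HIST1H2BE, all at a few TPM or less. Histone genes are near-copies of each other, so the list is firmer than any 1 member.

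C2H2 zinc finger mRNAs of the ZNF series fell in 275 of 392 cases and rose in 26 (median -0.60). The proteins are DNA-binding factors, many of them repressors of transposable elements. ZNF574 fell from 123 to 21.3 TPM (log2 -2.61, SE 0.11) and ZNF12 fell from 106 to 26.9 TPM (log2 -2.14, SE 0.11). ZNF106, which is an RNA-binding protein, was the largest rise among them (from 26.6 to 51.2 TPM, log2 0.94, SE 0.10).

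The machinery of transcription and splicing held members of both kinds. In the RNA polymerase II and Mediator list 28 of 59 rose and 14 fell, against 34.8% and 27.5% of all genes, and the counts became 20 and 18 in protein-coding transcripts only. MED26, the Mediator subunit that recruits elongation factors, stood at 106 and 105 TPM at 1 h, 64.7 and 75.4 at 2 h, 19.4 and 26.2 at 4 h, and 7.36 and 7.08 at 6 h. All late values were below all earlier ones (late change log2 -2.65, SE 0.087, adjusted p = 8.63e-13). MED9 fell from 94.4 to 19.2 TPM (log2 -2.42, SE 0.11), and MED24 rose from 7.20 to 16.5 TPM (log2 1.10, SE 0.12), so that subunits of 1 complex moved in opposite directions. SR proteins and hnRNPs had 29 rises among 42, and the 3 falls were all CLK kinases, which phosphorylate SR proteins: CLK1 (log2 -0.56, SE 0.064), CLK4 (log2 -0.48, SE 0.094) and CLK3 (log2 -0.28, SE 0.11). CLK2 stood at log2 -0.37, adjusted p = 0.104. NONO, a paraspeckle protein, rose from 139 to 357 TPM (log2 1.38, SE 0.13). Nucleoporins and export factors had 33 rises among 39, with NUP85 of the Y complex going from 38.3 to 98.9 TPM (log2 1.36, SE 0.15). The 2 that fell were NXT1, the partner of the mRNA export receptor NXF1 (from 330.4 to 86.9 TPM, log2 -2.09, SE 0.082), and NUP62 of the central channel (from 265 to 172 TPM, log2 -0.68, SE 0.064).

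The mRNAs of the decay machinery itself mostly rose. Of 57 genes of deadenylation, decapping and the exosome, 36 rose and 4 fell (median 0.39), against 34.8% and 27.5% of all genes. The list median was also 0.39 in the uninduced arm. The counts became 30 and 9 in protein-coding transcripts only. CNOT1, the scaffold of CCR4-NOT, stood at 61.2 and 44.7 TPM at 1 h, 102 and 79.8 at 2 h, 141 and 165 at 4 h, and 173 and 180.2 at 6 h. Late values were all above earlier ones (late change log2 1.24, SE 0.12, adjusted p = 2.49e-07). CNOT7, a catalytic deadenylase that TOB proteins bind, rose from 134 to 212 TPM (log2 0.67, SE 0.080), and CNOT6, the other kind of catalytic subunit, rose from 15.0 to 22.7 TPM (log2 0.58, SE 0.083). CNOT2, a subunit of the NOT module, fell from 49.5 to 38.1 TPM (log2 -0.38, SE 0.060). PABPC1, the poly(A)-binding protein that TOB proteins also bind, rose from 369.8 to 594 TPM (log2 0.69, SE 0.066). CCRN4L, the circadian deadenylase-family protein nocturnin, fell from 165 to 54.1 TPM (log2 -1.69, SE 0.084), and the exosome subunits EXOSC4 (log2 -0.75, SE 0.088) and EXOSC3 (log2 -0.26, SE 0.084) made up the rest of the falls.

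Regulators that choose the target mRNAs went both ways. In the list of the BTG/TOB family and of proteins that bind 3′ untranslated regions, 16 of 39 rose and 14 fell. These shares are near the 34.8% and 27.5% of all genes. The counts became 15 and 17 in protein-coding transcripts only, so nothing is read from the list as a whole. TOB1, the closest relative of TOB2, stood at 243 and 289 TPM at 1 h, 184 and 246 at 2 h, 96.2 and 148 at 4 h, and 58.1 and 75.7 at 6 h. The groups did not overlap (late change log2 -1.40, SE 0.12, adjusted p = 6.50e-08). BTG1 fell from 23.6 to 9.14 TPM (log2 -1.41, SE 0.13) and BTG2 fell from 15.9 to 1.96 TPM (log2 -2.52, SE 0.16), while BTG3 stood at 114 TPM in both groups (log2 0.0048, adjusted p = 0.969). The AU-rich element binding proteins ZFP36 (-2.23), ZFP36L1 (-1.71) and ZFP36L2 (-1.37) fell, as did YTHDF2, the reader of methylated adenosine that recruits CCR4-NOT (from 438 to 232 TPM, log2 -0.99, SE 0.056). KHSRP, a decay-promoting AU-rich element binder, rose from 99.2 to 213 TPM (log2 1.14, SE 0.11), and ELAVL1, a stabilizing one, rose from 38.6 to 65.2 TPM (log2 0.78, SE 0.090). List members named here beyond the 4 of smallest p in each list were chosen after their values were seen.

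Long noncoding RNAs that changed mostly fell. Of 316 antisense RNAs, 194 fell and 7 rose (median -0.65), although reads from an antisense RNA and its partner may not have been told apart. Of 170 RNAs with LINC names, 100 fell and 5 rose (median -0.58). Of 33 nuclear long noncoding RNAs and small nucleolar RNA hosts, 14 fell. NEAT1, the scaffold of paraspeckles, went from 327 to 88.6 TPM (log2 -1.80, SE 0.12), and MALAT1 stood at 367 TPM at 1 and 2 h and 434 at 4 and 6 h (log2 0.25, adjusted p = 0.213). Both were listed as nuclear RNAs, and the purity of the cytoplasmic fraction was not tested here. Of 176 small nucleolar RNAs, 45 fell and 9 rose, a share of falls close to the 27.5% of all genes and below the 48.4% of noncoding ones, with SNORD72 going from 50.5 to 2.76 TPM (log2 -4.56, SE 0.57). RNAs this short are poorly measured by such libraries, and 122 of them passed in neither direction.

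MIRLET7DHG and MIR17HG, host transcripts of microRNAs, were among the 5 named noncoding falls. MIRLET7DHG stood at 44.8 and 34.8 TPM at 1 h, 23.3 and 13.9 at 2 h, 0.29 and 1.13 at 4 h, and 0.45 and 0.35 at 6 h. Every late value was below every earlier one (late change log2 -4.19, SE 0.25, adjusted p = 5.95e-10). MIR17HG, the host of the miR-17-92 cluster, stood at 27.7 and 24.6 TPM at 1 h, 9.87 and 8.62 at 2 h, 0.68 and 1.27 at 4 h, and 1.36 and 1.25 at 6 h. Its groups were separate as well (late change log2 -2.97, SE 0.24, adjusted p = 2.39e-08). MIR22HG, a host chosen after its value was seen, fell from 43.2 to 8.62 TPM (log2 -2.16, SE 0.12). The mature miRNAs that lie inside these genes are shown because they name what each host carries; the values are of the host transcripts and not of the mature miRNAs. Seeds, bases 2 to 8, are in capitals, and the sequences are from RefSeq on GRCh38.p14.
hsa-miR-17-5p, chr13:91350618-91350640, in MIR17HG: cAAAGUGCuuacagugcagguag
hsa-miR-20a-5p, chr13:91351072-91351094, in MIR17HG: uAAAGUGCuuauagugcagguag
hsa-miR-22-3p, chr17:1713914-1713935, in MIR22HG: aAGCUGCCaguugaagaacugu
hsa-let-7d-5p, chr9:94178841-94178862, in MIRLET7DHG: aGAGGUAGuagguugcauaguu
The first pair share the seed AAAGUGC and come from the same host, while miR-22 and let-7d have seeds of their own. The named noncoding genes that rose included MIR6807 (log2 2.99, SE 1.14) and the pseudogene GUSBP9 (log2 1.58, SE 0.49), both with large errors. Also among them were BLOC1S5-TXNDC5 (log2 1.61, SE 0.25) and ZFP91-CNTF (log2 1.37, SE 0.13), readthrough transcripts whose reads cannot be told from those of the coding genes they span.

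Gene length went along with the direction of change. The median genomic span of measured coding genes was 29.5 kb in RefSeq. It was 19.9 kb in those that fell and 35.5 kb in those that rose. Among changes of over 1 log2 it was 8.99 kb for falls and 32.9 kb for rises. Of the strong fallers, 18.9% had a span under 3 kb, against 4.82% of all measured coding genes. In the shortest class, 564 genes under 3 kb such as JUNB, 45.6% fell and 19.3% rose. In the class above 100 kb, 16.8% fell and 43.9% rose, and the classes between followed the same order for falls. The uninduced arm went the same way. Its median late change was -0.17 under 3 kb and 0.26 above 100 kb, next to -0.31 and 0.20 in the induced arm. This is a description across genes, which are not independent, and the histone genes are among the shortest.

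**Figure D3:**
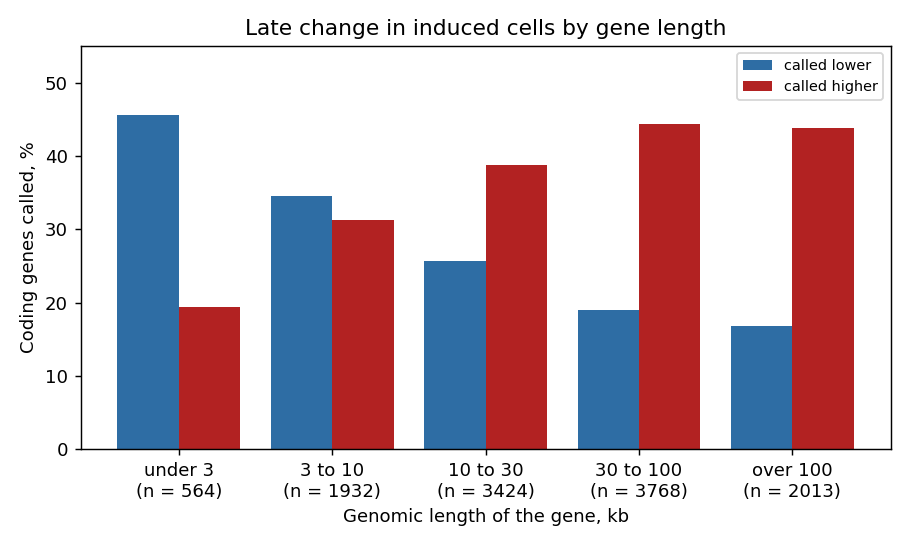
Bars give the percentage of coding genes called lower (blue) and higher (red) in the late change of induced cells, by genomic span of the gene in kb, with the number of genes under each class. The share called lower drops from 45.6% under 3 kb to 16.8% above 100 kb.

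Between 4 and 6 h, 226 genes (1.68%) rose and 1448 (10.8%) fell with limma at an adjusted p of 0.05. The count of rises depended on the scaling and became 611 with quantile normalization and 699 with median-of-ratios scaling, while that of falls stayed within 1.5 times. This contrast has 2 libraries on each side. Without the induced 4 h replicate 2, the induced 6 h replicate 1 or the induced 6 h replicate 2, the count of rises became 39, 46 and 55 and that of falls 783, 904 and 945. HPS6, a subunit of a lysosome-related organelle complex, stood at 139.9 and 124 TPM at 1 h, 93.5 and 111 at 2 h, 20.6 and 31.5 at 4 h, and 5.93 and 5.56 at 6 h. Both 6 h values were below both 4 h values (6 h minus 4 h, log2 -1.97, SE 0.16, adjusted p = 7.05e-07). JUNB (log2 -1.93, SE 0.11), IER5 (log2 -1.82, SE 0.24) and DUSP1 (log2 -1.79, SE 0.19) also fell from 4 to 6 h. RRS1, a ribosome biogenesis factor, fell by less than JUNB but with a smaller error (log2 -1.71, SE 0.089), and CLP1, a kinase of the 3′ end processing complex, fell similarly (log2 -1.70, SE 0.12). FAM46B, a poly(A) polymerase family member (log2 -1.83, SE 0.28), and KTI12 (log2 -1.78, SE 0.20) were the other named falls.

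Ribosomal protein mRNAs went on gaining in this last interval. Of 79, 57 rose from 4 to 6 h and none fell past the threshold (median 0.38), against 1.68% of all genes in the same fit. Like the count of rises over all genes above, this one depended on single libraries. RPL21 stood at 994 and 1066 TPM at 1 h, 882 and 826 at 2 h, 832 and 1066 at 4 h, and 1329.8 and 1569 at 6 h. Its 4 h values were close to the earlier ones, and the 6 h values were the highest (log2 0.62, SE 0.14, adjusted p = 0.00722). The median of the list relative to its 1 h libraries was -0.017 and 0.068 at 2 h, 0.31 and 0.17 at 4 h, and 0.63 and 0.62 at 6 h. Mitosis genes had another course, with list medians of 0.46 and 0.35 at 2 h, 0.72 and 0.85 at 4 h, and 0.71 and 0.88 at 6 h, and 4 of 45 rose between 4 and 6 h. IDH3B, a subunit of the citric acid cycle, stood at 39.8 and 27.3 TPM at 1 h, 42.4 and 33.7 at 2 h, 62.5 and 60.2 at 4 h, and 89.4 and 103 at 6 h. Both 6 h values were above both 4 h values (log2 0.64, SE 0.18, adjusted p = 0.0295). COMMD4 (log2 0.89, SE 0.27), PDE2A (log2 0.68, SE 0.20) and SNAP23 (log2 0.66, SE 0.19) had the largest rises from 4 to 6 h among named genes, while FTH1, ferritin heavy chain, rose from 4 to 6 h (log2 0.59, SE 0.18) without passing in the late change (log2 0.28, adjusted p = 0.0589). CRYZL1 and SPIDR also rose from 4 to 6 h, and their change from 2 to 4 h alone had the opposite sign.

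**Figure D4:**
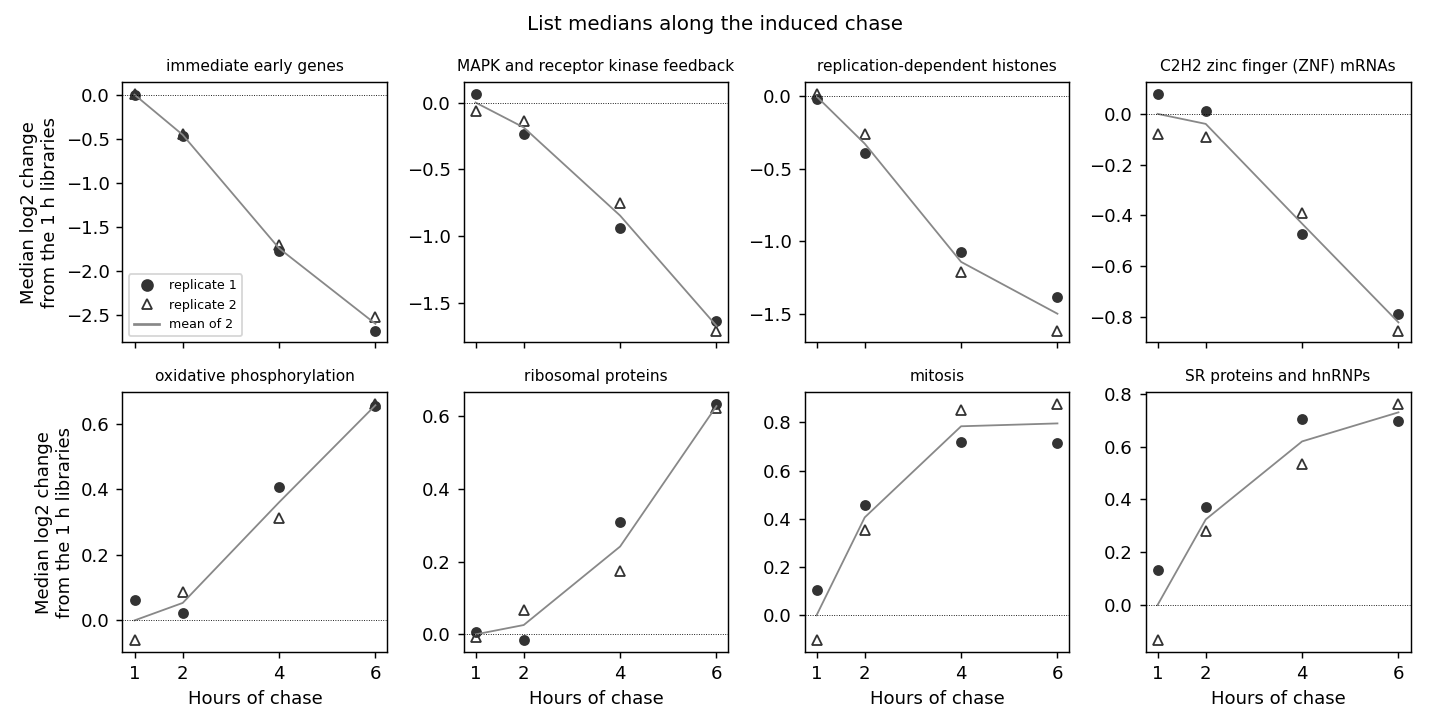
Each point is the median over a gene list of log2(TPM + 1) in 1 induced library minus the mean of the gene in the 1 h libraries, against hours of chase, with a line through the mean of the 2 replicates. Ribosomal proteins stay near 0 until 2 h and reach 0.63 and 0.62 at 6 h, while mitosis genes level off after 4 h.

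The rate of change differed between the later and the earlier chase for part of the genes. The late rate was the change from 1 and 2 h to 4 and 6 h over 3.5 h, and the early rate was that from 0 and 0.5 h to 1 and 2 h over 1.25 h. Both use the 1 and 2 h libraries. With limma, 63 genes (0.47%) had a higher late rate and 979 (7.3%) a lower one, 7.77% in all. The imbalance depended on the scaling. Quantile normalization gave 425 higher and 675 lower, and median-of-ratios scaling 294 and 597. Over the early hours themselves 2585 genes (19.3%) rose and 502 (3.74%) fell. The higher count became 40, 22 and 15 without the induced 0 h replicate 1, 1 h replicate 1 and 2 h replicate 2. The lower count became 501, 624, 562, 574 and 550 without the induced 1 h replicate 1, 2 h replicate 1, 0 h replicate 2, 0.5 h replicate 2 and 2 h replicate 2. EGR1, an immediate early transcription factor, fell by 1.86 log2 per hour early and by 0.87 per hour late (difference log2 0.99, SE 0.18, adjusted p = 0.00264). Its mean was 227 TPM at 0 h, and its late values lay between 1.85 and 5.31 TPM. TXNIP, an inhibitor of thioredoxin and of glucose uptake, went the other way, with 0.65 log2 per hour early and -0.74 late (difference log2 -1.39, SE 0.14, adjusted p = 5.43e-05). It stood at 60.0 and 59.3 TPM at 1 h, 53.9 and 58.8 at 2 h, 9.40 and 15.0 at 4 h, and 7.18 and 5.73 at 6 h, and the groups did not overlap.

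Lower late rates were found in other regulators too. TRIB1 had 0.10 log2 per hour early and -1.08 late (log2 -1.18, SE 0.13), and MYLIP, a ubiquitin ligase for the LDL receptor, had 0.14 and -0.89 (log2 -1.03, SE 0.11). SMAD7 had 0.41 early and -0.72 late (log2 -1.14, SE 0.13). In these genes the early rate was above 0 and the late rate below it. SLC39A4, a zinc transporter, had the reverse course, with -0.61 early and 0.23 late (log2 0.84, SE 0.14). LMBRD2, a membrane protein, went from -0.25 to 0.29 log2 per hour (log2 0.54, SE 0.12). Of the 392 ZNF mRNAs, 43 had a lower late rate and 10 a higher one, against 7.3% and 0.47% of all genes. FGF18 and RBM14-RBM4 had a lower late rate, without a called late change.

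The late change was set against that of the uninduced cells by a test of the difference between arms. In the uninduced arm 4874 genes (36.3%) rose and 2460 (18.3%) fell over the same hours. The induced arm had a lower late change in 295 genes (2.2%) and a higher one in 1 gene (0.00745%), TOB2. At an unadjusted p under 0.05 the counts were 1548 lower and 134 higher. The median difference over all genes was -0.075, and median-of-ratios scaling, which takes that median to 0.0011, left 30 lower and 1 higher. The count depended on single libraries. It fell to between 91 and 189 without any of 12 of the 16 libraries, and stayed within 1.5 times of 295 only without the uninduced 6 h replicate 2, the induced 2 h replicate 1, the induced 1 h replicate 2 or the induced 4 h replicate 2. The lowest value, 91, came without the uninduced 2 h replicate 1, and the highest, 354, without the induced 4 h replicate 2. The 12 were replicate 1 of the uninduced 1, 2, 4 and 6 h and of the induced 1, 4 and 6 h libraries, and replicate 2 of the uninduced 1, 2 and 4 h and of the induced 2 and 6 h libraries.

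Among the 295 genes, 279 were coding, and the median difference was -0.59 log2. The median late change was -0.94 in the induced arm and -0.34 in the uninduced arm. In 175 the gene fell in both arms, and in 83 it fell in the induced arm and was not called in the uninduced arm. In 16 it fell in the induced arm and rose in the uninduced arm. The remaining 18 and 3 rose in the uninduced arm and were not called or rose in the induced arm. Against 2.2% of all genes, the 295 held several members of the short-lived regulatory mRNAs (11 of 36), the immediate early genes (8 of 56), the KLF, ID and MYC network list (8 of 41) and the BTG/TOB and 3′ untranslated region list (4 of 39). The ZNF mRNAs, with 10 of 392, were near the share of all genes. The lists were drawn up with earlier results of these data known, and some share members, such as SERTAD1. Their shares therefore only describe the 295 and are no separate evidence. No member of the ribosomal protein, translation factor, proteasome, oxidative phosphorylation or histone lists passed in this test. MIR4734 had the lowest difference among the 295 (log2 -2.89, SE 0.68), but it is too short to be measured well, and it was chosen after its value was seen.

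ID3 had the largest difference among the coding genes that passed. In the induced arm it stood at 1382 and 1370.0 TPM at 1 h, 745 and 834 at 2 h, 195 and 212 at 4 h, and 65.4 and 69.3 at 6 h. In the uninduced arm it stood at 1277 and 1235 TPM at 1 h, 1047 and 1013 at 2 h, 502 and 484 at 4 h, and 239.6 and 193 at 6 h. At 1 h the induced values were the higher ones, and at 2, 4 and 6 h they were the lower ones, without overlap (difference in late change log2 -1.34, SE 0.11, adjusted p = 1.04e-05). ID3 passed under every scaling tried and without each of the 16 libraries in turn. ID1, its close relative, fell in both arms (-3.22 induced and -2.67 uninduced) with a difference that did not pass (log2 -0.56, adjusted p = 0.162).

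CITED4, a CBP and p300 binding protein like CITED2, stood in the induced arm at 289 and 290.4 TPM at 1 h, 159 and 197 at 2 h, 48.4 and 59.4 at 4 h, and 15.7 and 18.6 at 6 h. The uninduced values were 272 and 496 TPM at 1 h, 311 and 375 at 2 h, 184 and 149 at 4 h, and 63.7 and 67.3 at 6 h. Both arms fell, and the induced arm fell further (difference log2 -1.10, SE 0.21, adjusted p = 0.0138). This call was lost without the uninduced 2 h replicate 1 and under median-of-ratios scaling, where the differences were -1.03 and -1.01. NXT1, the export factor named above, stood in the induced arm at 359.7 and 399 TPM at 1 h, 261 and 302 at 2 h, 126 and 132 at 4 h, and 40.8 and 48.9 at 6 h. Its uninduced values were 396 and 463 TPM at 1 h, 381 and 405 at 2 h, 246 and 252 at 4 h, and 119 and 145 at 6 h. The 4 and 6 h values of the induced arm were all below those of the uninduced arm at the same hour (difference log2 -0.91, SE 0.12, adjusted p = 0.00113).

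The other named genes of this comparison were C16orf91, SOWAHC, AAED1, BAMBI and C12orf61. C16orf91, a mitochondrial assembly factor of complex III, had late changes of -2.38 induced and -1.39 uninduced (log2 -0.98, SE 0.16). SOWAHC, an ankyrin repeat protein, had -1.87 and -0.92 (log2 -0.95, SE 0.14). AAED1 fell in the induced arm and rose in the uninduced arm (-0.60 and 0.35, log2 -0.96, SE 0.17), and its induced groups overlapped. BAMBI, a decoy receptor for BMP and TGF-beta, had -2.90 and -1.97 (log2 -0.93, SE 0.23, adjusted p = 0.0469), a call lost without 14 of the 16 libraries, the exceptions being the induced 2 h replicate 1 and the induced 4 h replicate 2, and under quantile normalization. C12orf61 had -1.81 and -0.62 (log2 -1.18, SE 0.23), a call lost without the uninduced 2 h replicate 1. Of the 8 named genes with a lower late change, all but ID3 missed the threshold under median-of-ratios scaling, with the direction kept. TOB2 had a late change of -0.082 induced and -0.86 uninduced (log2 0.78, SE 0.16, adjusted p = 0.0203), lost without the uninduced 1 h, 2 h or 4 h replicate 1, the induced 6 h replicate 1 or the induced 2 h replicate 2, where it was 0.70 to 0.77.

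**Figure D5:**
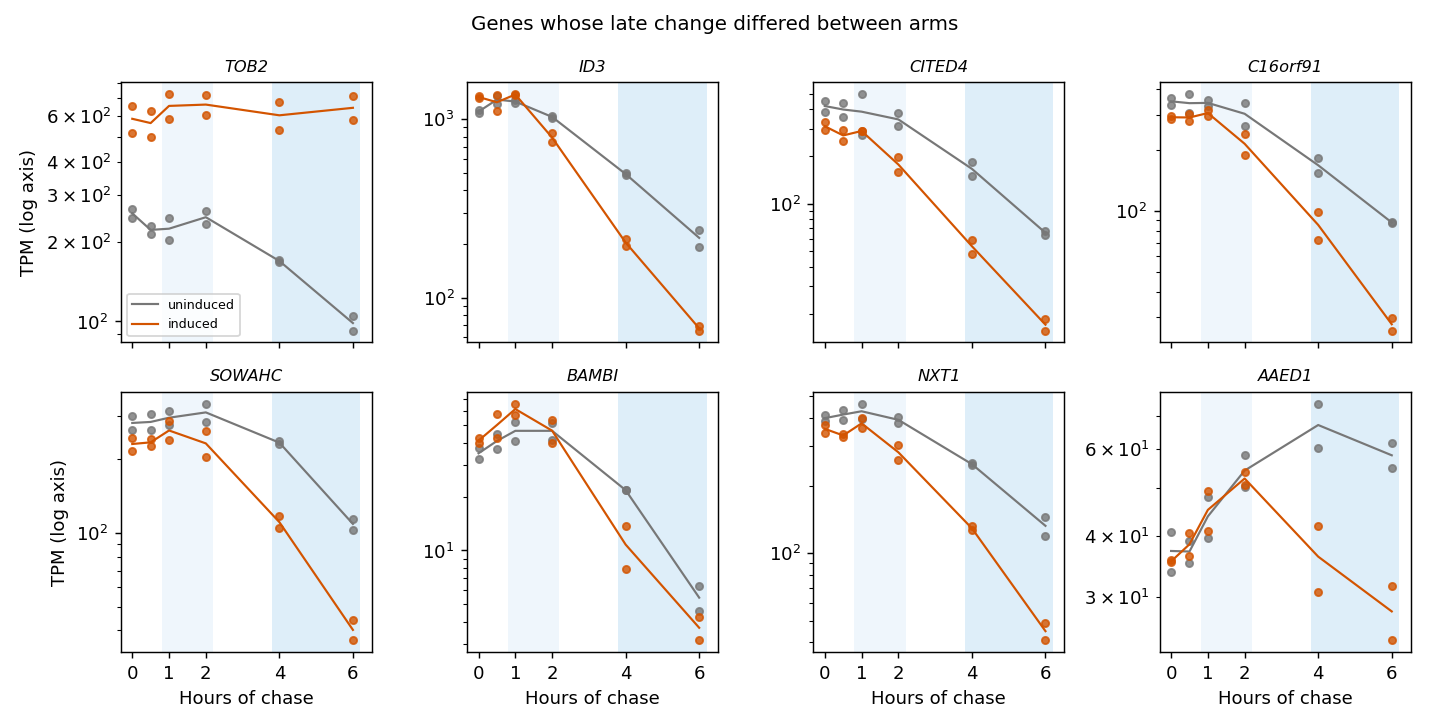
TPM on a log axis against hours of chase for TOB2 and 7 genes with a lower late change in the induced arm, with a point for each library, a line through the mean of 2, and shading over the 1 and 2 h and the 4 and 6 h libraries. ID3 ends at 65.4 and 69.3 TPM in the induced 6 h libraries, below the uninduced ones.

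Other regulators of mRNA fate and of transcription were among the 295. ZFP36L1 had late changes of -1.71 induced and -1.13 uninduced (log2 -0.58, SE 0.11), ZFP36L2 -1.37 and -0.83 (log2 -0.54, SE 0.11), and YTHDF2 -0.99 and -0.46 (log2 -0.52, SE 0.080). TOB1 had -1.40 and -0.82, a difference of similar size that did not pass (log2 -0.59, adjusted p = 0.104). KLF2 (log2 -0.79, SE 0.17), KLF4 (log2 -0.60, SE 0.14) and KLF5 (log2 -0.68, SE 0.11) passed, as did the signalling inhibitor SPRY2 (log2 -0.62, SE 0.15) and the Notch inhibitor NRARP (log2 -0.71, SE 0.13). JUNB, the coding gene with the largest fall, did not (log2 -0.32, adjusted p = 0.193), nor did MYC (log2 -0.29, adjusted p = 0.818). MIR22HG passed (late changes of -2.16 induced and -1.16 uninduced, adjusted p = 0.00617), and the CCR4-NOT subunits CNOT1 (log2 -0.035, adjusted p = 0.977) and CNOT7 (log2 -0.040, adjusted p = 0.952) had differences near 0. These genes were picked after their values were seen.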

How the data were processed

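Bromouridine-labelled cytoplasmic RNA of 24 libraries was sequenced, and the deposited values came as a table of transcripts. They are TPM computed by the authors. Per the submitters' processing notes the tools included RSEM 1.3.0, Bowtie2 and Trim Galore with the hg19 build, in roles not stated there. Strand handling is not given in the sources used here. TPM was summed over the RefSeq transcripts of each symbol, 48009 transcripts giving 25341 genes, and those averaging 1 TPM or more across the series were analysed. Of these, 48 had values identical to another gene in all libraries. Depth is unknown, so no counting error could be given.

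Log2 of the deposited TPM plus a pseudocount of 1 was fitted with limma 3.58.1 (R 4.3.3, with the data.table package, version 1.17.8) with a variance trend and 12 means for arm and time, leaving 12 residual degrees of freedom. A fold change on this scale understates the change of low genes. Contrasts were the late change in the induced arm, its difference from the uninduced arm, 6 h minus 4 h, and the late minus the early rate. Tests were two-sided with Benjamini-Hochberg adjustment over 13416 genes and a threshold of 0.05. The fits were tested on simulated data. Named genes had a mean of at least 5 TPM and passed the threshold. For the late change they were the 12 largest coding and 5 largest noncoding changes each way with separate groups, for the other contrasts the 8 largest coding each way with the same sign in both replicates, and in each list the 4 of smallest p. Some genes that this rule takes are not reported here. The 40 lists, 4 of them cell type markers, and the choice of libraries were made with earlier results of these data known. Alternatives covered the pseudocount, filter, scaling, transcripts, replicate block, variance trend, other times and leaving out each library. RefSeq tables on GRCh38.p14 gave gene spans and sequences (13365 of 13416 genes matched) and were not mixed with hg19 positions. Plots were drawn with matplotlib 3.10.9 and pandas 2.3.3 in Python 3.11.15.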

Additional observations from a re-analysis of the deposited data

Results flagged for a closer look

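The late change differed between the induced and the uninduced arm, by the interaction contrast in limma, in 9 named genes. The difference, induced minus uninduced on the log2 scale, was 0.78 for TOB2, -1.34 for ID3, -1.18 for C12orf61, -1.10 for CITED4, -0.98 for C16orf91, -0.96 for AAED1, -0.95 for SOWAHC, -0.93 for BAMBI and -0.91 for NXT1. Over all genes the test gave 295 with a lower and 1 with a higher late change in the induced arm. Median-of-ratios scaling, which takes the median difference over all genes from -0.075 to 0.0011, left 30 lower and 1 higher. All named genes with a lower late change but ID3 missed the threshold under that scaling. Several calls, BAMBI among them, also depended on single libraries.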

How the results depend on the processing

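For the late change of the induced arm, the counts called higher and lower kept within 1.5 times of 4666 and 3686 under all settings but 1. Taking 4 h against 2 h alone gave 1791 and 1425, and the cause was not tested. Leaving out each of its 8 libraries gave 3965 to 4818 higher and 3221 to 3664 lower. No list median changed sign under the 4 scalings tried. Single genes reversed in 6 cases. Under 4 h against 2 h the late change was -0.17 for CRYZL1, -0.040 for SPIDR and 0.0027 for ZNF337. It was -0.17 for ZNF714 in protein-coding transcripts and -0.010 for its transcripts taken singly, and -0.0079 for RPPH1 at 6 h against 1 h.

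The difference between arms gave 295 lower and 1 higher. The lower count was 188 with quantile normalization, 30 with median-of-ratios scaling and 574 with protein-coding transcripts only. The higher count was 2 with a pseudocount of 0.1, 2 with a mean of at least 5 TPM, 6 with quantile normalization and 4 with protein-coding transcripts. Leaving out each of 16 libraries gave 91 to 354 lower and 0 to 4 higher. For 6 h against 4 h, 226 genes were higher in the main setting, 611 with quantile normalization and 699 with median-of-ratios scaling. Leaving out each library gave 39 to 193 higher and 783 to 1245 lower. For the late minus the early rate, 63 were higher, against 425, 294 and 157 with quantile normalization, median-of-ratios scaling and protein-coding transcripts. Median-of-ratios scaling gave 597 lower against 979. Leaving out each library gave 15 to 68 higher and 501 to 1414 lower. The causes of these shifts were not tested.

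With a replicate block, the late change gave 5038 higher and 3945 lower, the arm difference 12 and 557, 6 h against 4 h 474 higher, and the rate difference 135 and 1635. Deviations of libraries with the same number correlated at 0.016 to 0.17 over 6 pairs of induced times, of which 3 passed 0.1. The median-of-ratios scaling factor was higher in replicate 1 than in replicate 2 at every time of both arms. Libraries with the same number may thus share a difference. The main fit has no replicate term and leaves any such difference in the spread. Precision is limited by 2 libraries per group and by unknown depth.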
